A study of Rattus norvegicus with 8 samples.

Results

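Hindlimb unloading after injury was compared with normal weight bearing in the healing medial collateral ligament, a band on the inner side of the knee, in rats. The comparison used 2 unloaded healing arrays and 2 loaded healing arrays out of 8 arrays in the series. The arrays were chosen by their titles alone, and every probe set other than the array's own controls was included. In both healing groups the medial collateral ligament was disrupted on both sides, and the ligaments were dissected at 3 weeks. The loaded healing rats then bore weight, whereas the unloaded healing rats were suspended by the tail, a protocol that lifts the hind legs off the ground, from 24 h after surgery. A pair of loaded control arrays, from sham-operated weight-bearing rats at 3 weeks, served as a reference level. The unloaded control arrays entered only an alternative fit of all 8 arrays, and no result as reported uses them. The labels give no strain, sex or age, and do not record if the pair of arrays in a group stands for separate rats, pooled tissue or a repeated sample. All standard errors (SE) and p-values below therefore measure the spread between arrays, which may be technical.

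A torn ligament is bridged by scar tissue. Macrophages clear the debris, fibroblasts lay down a matrix of collagen, fibronectin and small proteoglycans, and proteases and their inhibitors then remodel it along the line of pull. Mechanical load is one of the signals that fibroblasts sense through integrins and the actin cytoskeleton.

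The values are signal intensities per probe set, a set of short oligonucleotides that together report 1 transcript, on a linear scale already adjusted between arrays. Median signals lay between 238.5 and 285.6 over the 6 arrays. Pearson correlations of log2 signal across probe sets were 0.839 within loaded healing, 0.804 within unloaded healing and 0.826 within loaded control, against 0.756 to 0.867 between arrays of different groups, so the groups did not separate by this measure (probe sets are not independent replicates). The array's 3' control probe set for actin read 1353 and 1597 on the loaded healing arrays, below the 4786 and 5235 of unloaded healing and the 4393 and 4955 of loaded control. The GAPDH 3' control was also lower in loaded healing, at 1038 and 843 against 1948 and 1872 in unloaded healing. The ratio of the 5' to the 3' actin control was 0.36 and 0.24 in loaded healing and 0.53 and 0.34 in unloaded healing. In loaded control it was 0.36 and 0.39. For GAPDH this ratio was 0.73 and 0.86 in loaded healing, 0.82 and 0.88 in unloaded healing and 0.90 and 0.79 in loaded control. A spike-in control of added RNA (BioB) differed between the unloaded healing arrays, at 27210 and 761, and the part of these differences in the results below was not tested. The 6 of 8 defining ligament fibroblast markers on the array summed to between 44381 and 113439, and Col1a1 gave most of each sum. Comp, the dimmest of them in loaded healing, read 223 and 361 there, where the array medians were 245.2 and 282.6. No marker of another cell type was at 0, but neither was any value in the data, so this says nothing about those cells. Both cartilage markers on the array lay below the signal filter.

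The unloaded scar held less transcript of 5 of 12 macrophage genes, 2 of 21 lysosomal genes and 2 of 10 collagens. It held more transcript of 5 of 39 ribosomal protein genes and of a few single genes such as Pcolce and Nbl1. Each gene was read at its brightest probe set (limma), where 1.21% of all 3230 genes fell and 0.279% rose. The largest named fall was that of Spp1, which encodes the matrix and macrophage glycoprotein osteopontin, and the largest named rise was that of Pcolce, an enhancer of procollagen cleavage. Of 5244 probe sets tested, 43 rose and 57 fell (limma, Benjamini-Hochberg adjusted p under 0.05, log2 difference of unloaded minus loaded healing from a model of 6 arrays). These are 0.82% and 1.09% of the probe sets, 1.91% together, and in all 100 the unloaded and loaded arrays did not overlap. Non-overlap alone was common, with 21.1% of all probe sets higher and 18.8% lower on both unloaded arrays. Named genes made up 69 of the calls, 22 that rose and 47 that fell, and the other 31 carried no single gene symbol. The median log2 difference over all probe sets was 0.05.

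**Figure D1:**
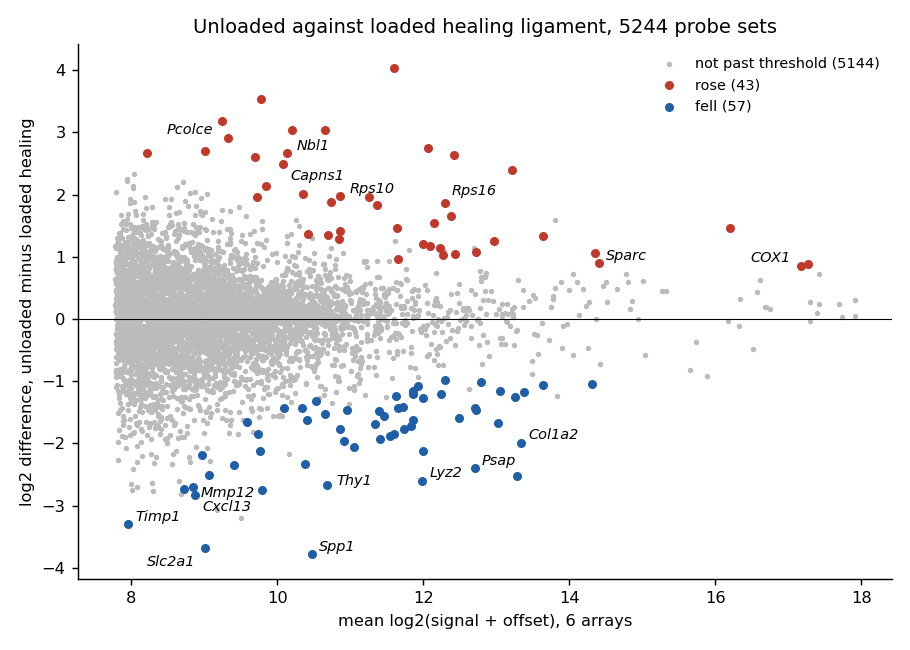
Each point is 1 of 5244 probe sets, with its mean log2(signal + offset) over 6 arrays on the x axis and its log2 difference between unloaded and loaded healing on the y axis. The 57 probe sets that fell are blue and the 43 that rose are red, and most of both lie in the brighter part of the range.

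These counts depended on single arrays and on the model. Without loaded healing 1 there were 29 calls, without loaded healing 2 there were 37, without unloaded healing 1 there were 64 and without unloaded healing 2 there were 31. A term for replicate number raised the count to 175, 77 up and 98 down, and kept all 100. A variance prior without an intensity trend gave 0 calls, with 518 probe sets at an unadjusted p under 0.05, against 568 in the model as reported. Scaling to added spike-in RNA used the BioC, BioDn and CreX controls, without BioB. Their geometric mean was 24050 and 23980 in loaded healing, 39890 and 28840 in unloaded healing and 29420 and 34290 in loaded control. The unloaded arrays thus differed from each other in these controls as well. This scaling moved the median of all probe sets to -0.41 and the split of calls to 21 that rose and 141 that fell. It kept 78 of the 100 calls and turned 0 in direction. All 47 named falls kept their call under that scaling, as did 11 of the 22 named rises, and it was lost by Actg1, COX1, Eef2, Hsp90ab1, Psmb5, Rpl11, Rpl18, Rpl7a, Rplp0, Rps15 and Sparc. A group of 12 named genes kept their call whichever array was left out: Spp1, Thy1, Lyz2, Psap, Col1a2 and Pgam1 among those that fell, and Rplp0, Rps15, Rpsa, Rps3, Rps16 and Rps10 among those that rose. The other 57 lost it without at least 1 array.

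Most calls were made on bright probe sets. When probe sets were split by mean signal into 3 classes of 1748, in the brightest class the median SE was 0.31 and 39 rose and 49 fell, whereas in the dimmest class it was 0.66 and 1 rose and 1 fell. A difference under about 2.67 on the log2 scale was never called in the dimmest class, so smaller differences of dim genes were not detectable here.

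The called genes were also set beside the sham-operated reference. The 43 probe sets that rose had a median log2 difference of 0.04 between unloaded healing and loaded control (range -0.77 to 0.54) and of -1.66 between loaded healing and loaded control. For the 57 that fell these medians were -0.15 (range -2.40 to 1.12) and 1.51. These probe sets were chosen for their difference between the healing groups and the comparisons share arrays, so a distance from control on one side or the other can follow from that choice and nothing is read from it. Over all 5244 probe sets the median size of the log2 difference from loaded control was 0.32 for unloaded healing and 0.39 for loaded healing. Of the probe sets that fell, 6 were lower in unloaded healing than in loaded control by more than 1 log2 unit (Thy1, Sfrp4, Polr3a, Col1a1, Col1a2 and Pmepa1) and 1 was higher by more than that, Mmp12. Over all 5244 probe sets 1 passed the threshold between unloaded healing and loaded control, 0.0191% of those tested, and 16 passed with the term for replicate number and 6 with quantile normalization. It carries no gene symbol and read 8151 and 6515 in unloaded healing, 5444 and 4462 in loaded healing and 1049.5 and 903 in loaded control.

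Several macrophage and myeloid genes fell in the unloaded scar. Of 12 measured macrophage and myeloid genes 5 fell and 0 rose, against 1.21% falling and 0.279% rising among all 3230 genes at their brightest probe set, with a list median of -0.87 against 0.02 for all genes. In bulk tissue fewer macrophages and less RNA per macrophage cannot be told apart, and which cells these transcripts came from was not tested. Lyz2, the lysozyme of myeloid cells, read 16260.4 and 13978 on the loaded arrays and 2422 and 2466 on the unloaded arrays. Unloaded healing was thus near the 2144 and 1392 of loaded control, and the fall was 6.08-fold (log2 -2.60 ± 0.23 SE, adjusted p = 0.00107). Mmp12, the macrophage metalloelastase, read 4904 and 3319 in loaded and 569 and 561 in unloaded healing (log2 -2.75 ± 0.40 SE, adjusted p = 0.0116), still above the 350.4 and 157 of loaded control. Lgals3, which encodes the galectin of activated macrophages, fell from 4025 and 4218 to 1506 and 1425 (log2 -1.47 ± 0.21). Ctss, a protease of antigen-presenting cells, fell from 2917 and 2736 to 895 and 1159.7 (log2 -1.43 ± 0.26). Apoe, the lipid carrier that macrophages secrete, fell by 1.18 on the log2 scale, but a dimmer probe set of the gene was higher on both unloaded arrays (463 and 395 loaded, 1039.9 and 1044 unloaded, adjusted p = 0.222, limma).

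Other macrophage genes did not pass the test. The lipopolysaccharide co-receptor Cd14 read 986 and 1392 on the loaded and 1118 and 1342 on the unloaded arrays, and the complement subunit C1qc read 994 and 942 against 1104 and 980.5, so both groups overlapped. Aif1, an actin-binding protein of macrophages, also overlapped (496 and 414 against 570.3 and 447). Cyba, a subunit of the phagocyte oxidase, was lower on both unloaded arrays (872 and 706 against 200.3 and 70.8), with an adjusted p of 0.175 (limma). The summed signal of the 4 defining macrophage markers on the array (of 7 listed) was 17548 and 15493 in loaded healing, 3637 and 4063 in unloaded healing and 3543 and 3362 in loaded control, and Lyz2 gave most of it in both healing groups. Cd68, Cd163 and Msr1 were not among the named probe sets, and Csf1r and Itgam lay below the signal filter.

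The promoters of 3 genes are shown, since all of them fell and are expressed by macrophages or, for Cxcl13, by myeloid and stromal cells. Each sequence is RefSeq, assembly GRCr8, from 170 bases before the transcript start to the base before it. The Mmp12 window is chr8:12866482-12866651 on the plus strand, the Lyz2 window chr7:54798012-54798181 on the minus strand and the Cxcl13 window chr14:13917921-13918090 on the minus strand. Capitals mark exact matches to 3 motifs searched on both strands: the AP-1 site is TGANTCA, the TATA box is spelled TATAAA, and for the ETS family the core was AGGAAG.
Mmp12: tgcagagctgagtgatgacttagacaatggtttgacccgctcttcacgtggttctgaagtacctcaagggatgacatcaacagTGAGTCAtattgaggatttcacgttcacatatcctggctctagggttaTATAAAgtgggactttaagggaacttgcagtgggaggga
Lyz2: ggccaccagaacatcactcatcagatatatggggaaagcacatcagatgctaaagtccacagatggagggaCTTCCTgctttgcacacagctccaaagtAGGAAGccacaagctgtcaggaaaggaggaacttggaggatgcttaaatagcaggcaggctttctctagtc
Cxcl13: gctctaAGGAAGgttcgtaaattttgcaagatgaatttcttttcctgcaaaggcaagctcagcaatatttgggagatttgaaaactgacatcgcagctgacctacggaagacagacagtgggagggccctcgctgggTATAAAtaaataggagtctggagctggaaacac

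In these windows Mmp12 held an AP-1 match and a TATA box, Lyz2 an ETS core in each orientation, and Cxcl13 an ETS core and a TATA box. Promoters were found for 56 of the 69 called genes. Over those of the 35 genes that fell, 34.3% held the ETS core, against 21.9% of 2644 tested genes and 21.3% of 27457 promoters in the table. The TATA box was in 25.7% of the genes that fell, against 8.43% of tested genes and 9.2% of all promoters, and the AP-1 site in 1 of them, against 2.99% and 4.14%. Of the 21 promoters of genes that rose, 3 held the AP-1 site, 2 the TATA box and 4 the ETS core. A match describes the letters of these windows and was not tested as a binding site.

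Lysosomal genes were mostly lower in the unloaded scar. Of 21 lysosomal proteases and proteins 2 fell and 0 rose (median -0.78). Counting direction alone, 19 of 21 were lower, against 1568 of all 3230 genes. With the replicate term 5 fell, and with the probe sets of each gene averaged 1 fell. Psap, the precursor of the saposins that activate sphingolipid breakdown, read 26190.2 and 20143 in loaded and 4251 and 4377 in unloaded healing (log2 -2.40 ± 0.18 SE, adjusted p = 0.000749). The other probe sets of Psap were dim and went the opposite way, higher in unloaded healing by 0.72 and 1.19 on the log2 scale without passing (adjusted p = 0.662 and 0.544, limma). Ctss was the second of the list to fall. Below the threshold, Cd63, a membrane protein of lysosomes and exosomes, read 1964 and 1619 loaded and 985 and 717 unloaded. The protease inhibitor Cstb read 6736 and 5193 against 3311 and 3539, and the acid lipase Lipa 1603 and 1874 against 678 and 1157. Each of these 3 was lower on both unloaded arrays without passing (adjusted p = 0.187, 0.159 and 0.323, limma), and Cstb passed with the replicate term. Ctsb, the lysosomal cysteine protease, passed only with the replicate term (log2 -1.48). Outside the list, Grn, the lysosomal and secreted growth factor progranulin, fell from 5929 and 4864 to 1482 and 1229.9 (log2 -1.96 ± 0.30), and its other probe set differed by -0.34.

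Genes of antigen presentation moved less as a group: 2 of 17 fell, 0 rose, and the median was -0.04. RT1-Da, the alpha chain of a rat class II molecule, fell from 8039.9 and 6386 to 1803 and 2051 (log2 -1.88 ± 0.22 SE, adjusted p = 0.0037), near the 2055 and 1621 of loaded control. Its dimmer probe set differed by -0.50 without passing. B2m, the light chain of class I molecules, fell from 10462 and 7551 to 2746 and 2605 (log2 -1.72 ± 0.21). The class I heavy chain RT1-CE16 read 6382 and 4941 loaded and 3683 and 4339 unloaded, without passing (adjusted p = 0.386, limma), and the class II gene RT1-Ba overlapped between groups. A probe set of Cd74, the class II invariant chain, passed only with the replicate term (log2 -3.19).

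Among 31 chemokines, cytokines and receptors 2 fell and 0 rose (median -0.07). Cxcl13, which attracts B cells, read 2185 and 1644 on the loaded and 278 and 189.5 on the unloaded arrays (log2 -2.83 ± 0.51 SE, adjusted p = 0.0291), against 95.9 and 232 in loaded control. Ccl2, which attracts monocytes, fell from 1942 and 1601 to 576 and 359.7 (log2 -1.86 ± 0.38), and a dimmer probe set differed by -0.60. These 2 were low on both unloaded arrays, whereas most of the list was not. Platelet factor 4, Pf4, was lower without passing (2661 and 2040.4 against 1152 and 1563). Mif, a cytokine that holds macrophages in place, was higher without passing (2106 and 2526 against 3309 and 3756), as was the membrane chemokine Cx3cl1 (1297 and 1098 against 1871 and 1552). The receptor Cxcr4 overlapped (1930.2 and 1538 against 1863 and 1757). No lymphocyte or mast cell marker of 16 passed, and the mast cell tryptase Tpsb2 read 1647 and 2167 loaded and 3016 and 2615 unloaded.

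**Figure D2:**
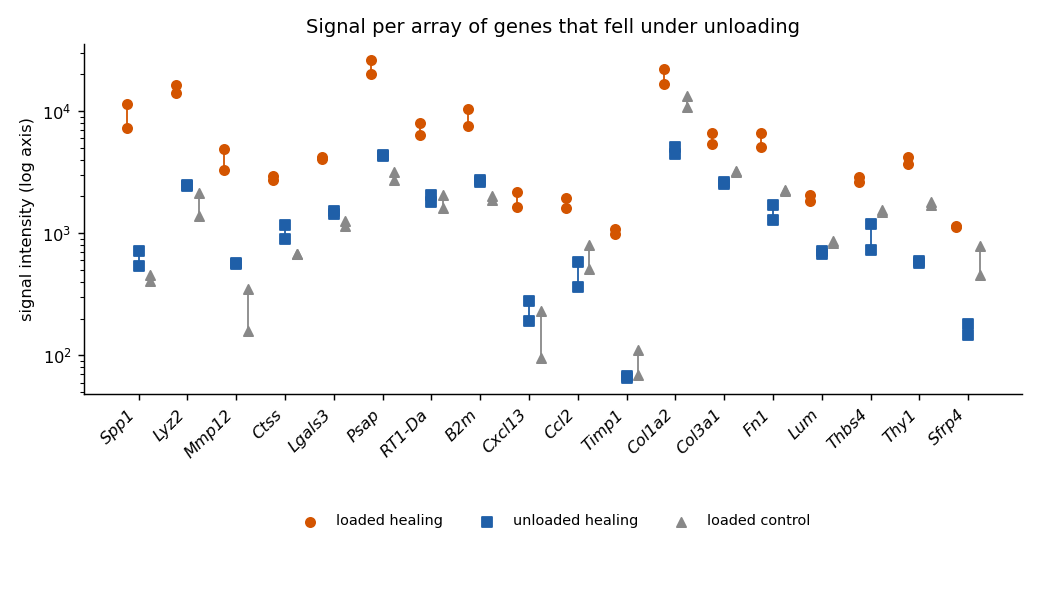
Signal intensity on each of 6 arrays (log axis) for 18 genes that fell, with circles for loaded healing, squares for unloaded healing and triangles for loaded control, 2 arrays each. Both squares lie below both circles in every gene, and for Lyz2, Psap, RT1-Da and B2m they lie near the triangles. The genes were chosen for their difference between the healing groups, so nothing is read from the distance to the triangles.

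Collagens were lower in the unloaded scar. Of 10 collagens measured 2 fell at their brightest probe set, 3 at any probe set and 0 rose (median -0.62). Counting direction alone, 9 of 10 were lower, against 1568 of all 3230 genes. With the replicate term 4 fell, and with the probe sets of each gene averaged 1 fell. Col1a2, a chain of type I collagen, the main fibre of ligament, fell from 21950.2 and 16673 to 5118 and 4489.8 (log2 -1.99 ± 0.19 SE, adjusted p = 0.00147). This put unloaded healing below the 13164 and 10799 of loaded control. Col3a1, the collagen of early scar, fell from 6629 and 5377 to 2506 and 2634 (log2 -1.20 ± 0.19 SE, adjusted p = 0.0152), and a dimmer probe set was higher in unloaded healing by 0.70. For Col1a1, the other chain of type I collagen, the 4 probe sets disagreed, a pair lower and a pair higher in unloaded healing. A probe set that read 18467 and 13522 loaded and 8129 and 7066 unloaded fell (log2 -1.06 ± 0.18). The brightest one read 84666 and 73916 against 50509.5 and 34753 and passed only with the replicate term (adjusted p = 0.0781 without it, limma). A dimmer one, named for the same sequence as the first, was higher in unloaded healing (2339.8 and 1769 against 3724 and 3467, adjusted p = 0.107, limma) and rose with the replicate term (adjusted p = 0.0334, limma). The fourth read 2132 and 1425 loaded and 2429 and 2194 unloaded and did not pass. Type V collagen, which sets fibril diameter, was lower without passing, Col5a1 at 1320.5 and 1369 against 908 and 652 and Col5a2 at 1813 and 1588 against 627 and 318 (adjusted p = 0.301 and 0.0587, limma). Col5a2 passed with the replicate term.

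The enzymes that fold, cleave and crosslink collagen included a single gene past the threshold. Of 9 measured, Pcolce rose and 0 fell, with a list median of 0.19 that turned negative under spike-in scaling, as did that of all probe sets. Pcolce read 151 and 126 in loaded healing and 1295 and 1338 in unloaded healing, a 7.52-fold rise (log2 2.91 ± 0.38 SE, adjusted p = 0.00618), close to the 893 and 1236 of loaded control. Ppib, a prolyl isomerase of the endoplasmic reticulum, was higher without passing (563 and 352 against 1062 and 1029, adjusted p = 0.171, limma). The lysyl oxidases that crosslink collagen and elastin were lower without passing, Lox at 1497 and 1374 against 758 and 1045 and Loxl1 at 2744 and 2270.0 against 1256 and 200.1, and Loxl1 passed with the replicate term. Plod2 and Plod3, which hydroxylate collagen lysines, overlapped between the groups.

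Proteoglycans and matrix glycoproteins split: 6 of 30 fell and 1 rose, with a median of -0.14. Spp1 read 11380.1 and 7322 on the loaded arrays and 721 and 536 on the unloaded arrays, a 13.8-fold fall (log2 -3.79 ± 0.30 SE, adjusted p = 0.000765), against 407 and 454 in loaded control. Fn1, the fibronectin of provisional matrix, fell from 6587 and 5062 to 1705 and 1289 (log2 -1.93 ± 0.23), but dimmer probe sets of the gene overlapped. Sparcl1, a secreted relative of Sparc, fell from 1868 and 1061 to 179.6 and 171 (log2 -2.74 ± 0.52). Lum, a small proteoglycan that spaces collagen fibrils, fell from 2047 and 1826 to 673 and 714 (log2 -1.43 ± 0.27). Thbs4, a thrombospondin of tendon and muscle matrix, fell from 2866 and 2639.6 to 1182 and 726 (log2 -1.53 ± 0.28). Mgp, an inhibitor of calcification, fell by 1.08 on the log2 scale, from 7187 and 5539 to 2954 and 2962. These 6 falls include structural proteins and signalling glycoproteins alike.

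The single rise in this list was Sparc, a collagen-binding glycoprotein, from 12677 and 11370.4 to 25748 and 19466 (log2 0.90 ± 0.17 SE, adjusted p = 0.0337), still below the 37960.1 and 38169.5 of loaded control. That call was lost under spike-in scaling (adjusted p = 0.454, limma), and another of the gene's probe sets was lower in unloaded healing (5647 and 5198 against 3825 and 3517). A pair of further Sparc probe sets were higher in unloaded healing, by 1.45 and 0.74 on the log2 scale, and the latter rose with the replicate term (adjusted p = 0.0266, limma). Bgn, the small proteoglycan biglycan, was higher without passing (3379 and 2286 against 6478 and 5504, adjusted p = 0.0532, limma) and passed with the replicate term. Decorin, Dcn, overlapped at its brightest probe set (2360.1 and 2239.9 against 2109 and 2884) while another of its probe sets fell with the replicate term (log2 -1.28). Fmod, fibromodulin, was lower in both scars than in loaded control, at 1374 and 1187 loaded, 758 and 992 unloaded and 2878 and 2624 control, and tenascin-C, Tnc, overlapped. Postn, the load-responsive matrix protein periostin, passed only with the replicate term (log2 -1.83).

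Among 16 matrix proteases and inhibitors 2 fell at their brightest probe set (Mmp12 and Ctss), 3 fell at any probe set and 0 rose. The median was -0.51, and 13 of 16 were lower, against 1568 of all 3230 genes. Timp1, an inhibitor of metalloproteinases, fell on 1 of its probe sets, from 1078 and 986 to 64.9 and 67.8 (log2 -3.30 ± 0.56 SE, adjusted p = 0.023). Its brighter probe set, named for the same sequence, read 2482 and 2476 loaded and 1122 and 1494 unloaded, a smaller difference that did not pass (log2 -0.91 ± 0.24, adjusted p = 0.129, limma). Both probe sets were lower on both unloaded arrays, so the direction was shared and the size was not. Mmp2, the gelatinase of fibroblasts, was lower without passing (1809 and 2049.7 against 822 and 1129). Timp2 was also lower (2465 and 2620.1 against 1811 and 1706), and Mmp14, the membrane protease that activates Mmp2, overlapped (1697 and 1208 against 1588 and 979.9). Ctsk, the collagen-cutting cathepsin of osteoclasts, was 2076 and 1317 loaded and 1046 and 1301 unloaded, both above the 356 and 148 of loaded control. Of 6 cartilage and bone markers, which include Ctsk, 1 fell, Spp1, and 0 rose.

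Growth factors and their binding proteins gave 1 rise and 1 fall among 37 genes (median 0.08), both of secreted antagonists. Nbl1, which binds bone morphogenetic proteins, rose from 159 and 483 to 1982 and 2052 (log2 2.66 ± 0.43 SE, adjusted p = 0.018), near the 1988 and 2201 of loaded control. Sfrp4, which binds Wnt ligands, fell from 1136 and 1129.6 to 148 and 182 (log2 -2.51 ± 0.43 SE, adjusted p = 0.0247), below the 459 and 780.5 of loaded control. Inha, the alpha chain of inhibin, rose with the replicate term alone on its dimmer probe set (845 and 419 against 1784 and 1454, adjusted p = 0.0237, limma). Igf1, an anabolic growth factor, read 1214 and 560.4 loaded and 1817 and 1527 unloaded, and its binding protein Igfbp6 891 and 821 against 1753 and 1508, so both were higher on both unloaded arrays (adjusted p = 0.342 and 0.142, limma). Tgfb2 was likewise higher without passing (779 and 949 against 2021 and 1083), and Tgfb3 overlapped. Outside the list, Pmepa1, a target and inhibitor of TGF-beta signalling, fell from 9447 and 8069 to 3175 and 2618 (log2 -1.58 ± 0.18), below the 8014 and 6844 of loaded control. Fstl1, a secreted follistatin relative, fell from 4998 and 4888 to 1805 and 1264 (log2 -1.68 ± 0.23), and its dimmer probe set overlapped.

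Defining fibroblast genes were lower in sum: the 6 fibroblast markers on the array came to 113439 and 97016 in loaded healing, 60200 and 44381 in unloaded healing and 100680 and 80476 in loaded control (Scx and Tnmd were not among the named probe sets). Col1a1 gave most of each sum. Of 11 tendon and ligament genes 3 fell at the brightest probe set, 4 at any, and 0 rose (median -0.54). Thy1, a surface glycoprotein of fibroblasts, read 3712 and 4168 in loaded and 569 and 598 in unloaded healing (log2 -2.67 ± 0.23 SE, adjusted p = 0.000995), with loaded control between them at 1717 and 1791. The others were Col1a2, Thbs4 and Col1a1. Comp, a matrix protein of tendon, was 223 and 361 loaded, 524 and 536 unloaded and 1859.8 and 2506 in loaded control, so both scars lay under the control and did not differ past the threshold (adjusted p = 0.502, limma).

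Cytoskeletal genes moved in both directions. Of 15 genes for actin, thymosins, tubulins and vimentin 1 rose and 2 fell (median -0.07). Vim, the intermediate filament of fibroblasts and macrophages, fell from 18919.6 and 13964 to 6418 and 3995 (log2 -1.67 ± 0.24), and Tuba1b, an alpha-tubulin, fell by 1.26 on the log2 scale. Actg1, cytoplasmic gamma-actin, rose from 499 and 868 to 2468 and 2603 (log2 1.88 ± 0.29 SE, adjusted p = 0.0152), with loaded control at 2516 and 2995. The beta-actin probe set Actb read 5688 and 5142 loaded and 9196 and 5965 unloaded and did not pass (adjusted p = 0.571, limma). The array's own actin 3' control, given above, was higher in unloaded healing than in loaded healing as well, and the Actg1 call was lost under spike-in scaling (adjusted p = 0.0505, limma). Tmsb4x, the actin-monomer binding thymosin beta 4, was lower without passing (33678 and 29109 against 21282 and 16689) and passed with the replicate term. Of the contractile genes, Tpm1, a tropomyosin counted in both muscle lists below, fell by 1.43 on the log2 scale on 1 of its probe sets. Myl12a, a regulatory myosin light chain, fell by 1.15 on 1 probe set, while its other one overlapped (log2 0.10). The brightest Tpm1 probe set overlapped (12065 and 15789 against 13573 and 12689), and a dimmer one was higher by 1.19 and rose with the replicate term.

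Of 21 integrins and adhesion receptors only Thy1 passed. Itgb1, the integrin beta chain of collagen receptors, read 1683 and 1443 loaded and 961 and 1039.7 unloaded (adjusted p = 0.469, limma), and Alcam 4349.6 and 3531 against 3502 and 3292. Cd81, a tetraspanin, passed only with the replicate term (log2 -3.07). Of 14 S100 proteins, annexins and galectins 3 fell and 0 rose (median -0.32): Lgals3, the membrane-binding annexin Anxa5 (from 6073 and 6847 to 2813 and 2516) and S100a4, a calcium-binding protein of fibroblasts and macrophages (from 14772 and 13068 to 5694 and 6719.8). A dim probe set of Anxa5 was higher in unloaded healing. Lgals1, the galectin of fibroblasts, read 3995 and 3612 against 5024 and 4268, and S100a10 4242 and 3758 against 3464 and 3500.5, both without passing.

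Glucose handling gave large falls on single probe sets. Of 24 genes of glycolysis and glucose transport 3 fell at the brightest probe set, 4 at any, and 0 rose, while the list median was 0.19. Slc2a1, the basal glucose transporter, read 2247 and 2242 on the loaded arrays and 51.8 and 291 on the unloaded arrays, which differed widely from each other (log2 -3.69 ± 0.60 SE, adjusted p = 0.0194). Pgk1, a glycolytic kinase, fell from 2453 and 1812 to 439 and 459.8 (log2 -2.13 ± 0.32), but its dimmer probe set overlapped (517 and 590.4 against 499.6 and 571). Eno1, enolase, fell from 9925 and 7294 to 3984 and 3359.5 (log2 -1.21 ± 0.20). Pgam1 fell on 1 probe set, from 7996 and 6385 to 1928 and 1977 (log2 -1.85 ± 0.20), while its brightest one overlapped (6889.9 and 5632 against 6731 and 5691). Pkm, pyruvate kinase, and Hk2, hexokinase, did not pass (3390.5 and 3312 against 3102 and 2384 and 1387 and 1278 against 1485 and 1650.0).

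Lipid genes gave 3 falls among 18 (median -0.06): Lpl, the lipase that releases fatty acids from lipoproteins, Fabp5, a fatty acid carrier of macrophages and epithelium, and Apoe. Lpl fell from 5236 and 5422 to 1109 and 1409 (log2 -2.06 ± 0.31 SE, adjusted p = 0.0132), and its other probe sets were lower by smaller amounts (-0.67 and -0.52). Fabp5 fell from 1993 and 1584 to 490.1 and 579 (log2 -1.66 ± 0.34), and Acly, which makes acetyl-CoA for fat synthesis, fell with the replicate term alone (adjusted p = 0.0391, limma). Fabp4, the carrier of fat cells and macrophages, lay below the signal filter, at 736 and 593 loaded and 40.4 and 58.7 unloaded, and was not tested. The summed fat cell markers overlapped, at 9794 and 8624 loaded against 11395 and 7077 unloaded. Lep gave most of each sum, so the overlap is that of Lep. Plin1, also below the filter, read 57.8 and 304.8 loaded and 25.3 and 83.8 unloaded. Lta4h, which makes leukotriene B4, fell on 1 probe set (from 1278 and 1408 to 280.3 and 247, log2 -2.18 ± 0.41), while the brighter one, named for the same sequence, was higher (1426 and 1796 against 2473 and 2150.5, adjusted p = 0.471, limma). None of the 15 prostaglandin and leukotriene genes passed at its brightest probe set, and 1 was higher at an unadjusted p under 0.05 (limma).

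Among 43 nuclear genes for respiratory chain, ATP synthase and citrate cycle proteins 1 fell at the brightest probe set and 0 rose, with a median of -0.38, and 3 fell with the replicate term. Atp5po, a stalk subunit of the ATP synthase, fell from 5704 and 5571 to 2125 and 1890.4 (log2 -1.47 ± 0.24 SE, adjusted p = 0.0187), and its second probe set was lower by 1.04 without passing. Cytochrome oxidase subunits Cox4i1 (21215 and 18636 against 12136 and 9587) and Cox6a1 (3686 and 3946 against 1912 and 2126) were lower with adjusted p of 0.0583 and 0.0723 (limma) and passed with the replicate term, whereas Cox8a was higher (9647 and 8822 against 12119.6 and 10532) without passing. With the replicate term another Cox8a probe set rose (log2 1.66, adjusted p = 0.0239, limma), and Ndufs4, of respiratory complex I, fell (log2 -2.76, adjusted p = 0.0362, limma). Atp5f1e, another ATP synthase subunit, rose on 1 probe set (from 488 and 420.1 to 2071 and 1832, log2 2.01 ± 0.27) and was lower on the brighter one (5968 and 5719.9 against 3972 and 3933). The mitochondrial-encoded COX1 rose on 1 probe set by 0.86 ± 0.15, differed by 0.10 on the other, and lost its call under spike-in scaling.

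Transcripts of other cell types showed few calls. Of 33 skeletal muscle contractile genes Myh4, a fast myosin heavy chain, fell at its brightest probe set (from 7032 and 4877 to 2068 and 2264) and 0 rose. Counting direction alone, 22 were higher and 11 lower (median 0.18), against 1660 higher among all 3230 genes. The summed muscle markers were 11832 and 9368 in loaded healing, 7554 and 7194 in unloaded healing and 6177 and 5529 in loaded control. Myh4 gave most of the loaded healing sums, while Tnnt3, another marker, was higher on both unloaded arrays (859 and 843 against 1026 and 910). Embryonic myosin Myh3 overlapped (10833 and 7711 against 8489 and 6879), and muscle creatine kinase Ckm was higher without passing (1282 and 1242 against 2136 and 1848). Of 10 smooth muscle and myofibroblast genes 0 passed at the brightest probe set, 1 (Tpm1) fell at another, and 2 were lower at an unadjusted p under 0.05 at the brightest (limma). Acta2, the actin of myofibroblasts, was lower on both unloaded arrays (1998 and 1415 against 839 and 723, adjusted p = 0.157, limma). None of 23 endothelial genes passed; the vascular receptor Kdr read 257 and 3450.2 loaded and 245 and 3546 unloaded, following the replicate number in both groups. Haemoglobin beta, Hbb-b1, was higher without passing (1744 and 1958 against 3666 and 3136), above the 732 and 903 of loaded control, and 0 of 9 erythroid and 0 of 18 nerve and Schwann cell genes passed. Summed Schwann cell and nerve markers were 1640 and 2335 loaded against 1452 and 1280 unloaded, and Pmp22 gave most of each sum. S100b, another of these markers, was higher on both unloaded arrays (307 and 190 against 340 and 367.5). Of the 18 nerve and Schwann cell genes 14 were higher and 4 lower, against 1660 higher among all 3230 genes.

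Ribosomal protein genes made up 10 of the 22 named rises, and 39 of the 3230 genes tested encode cytosolic ribosomal proteins. At their brightest probe set 5 of the 39 rose and 0 fell, against 0.279% rising and 1.21% falling among all 3230 genes. The other ribosomal rises were at another probe set. The list median was only 0.10, with 24 members higher and 15 lower, and under spike-in scaling it was -0.39, where the median of all probe sets was -0.41. Rps16 rose from 2535 and 1898 to 7657 and 8638 (log2 1.87 ± 0.20 SE, adjusted p = 0.00238), with loaded control at 6418 and 7389. Rps10 rose from 814 and 649.5 to 2921 and 3047 (log2 1.98 ± 0.23 SE, adjusted p = 0.00349), with loaded control at 2740.2 and 2746. Rplp0, a protein of the ribosomal stalk, rose from 7572 and 6653 to 18632 and 17172 (log2 1.33 ± 0.15). For these probe sets the loaded healing arrays were the low ones and unloaded healing lay near loaded control. They were chosen for their difference between the healing groups, so nothing is read from that nearness. Rpl18 and Rpl7a also rose at their brightest probe sets, by 1.37 and 1.14. Rps3, Rps15, Rpsa, Rpl6 and Rpl11 rose on 1 probe set each, by 1.83, 1.55, 1.66, 1.96 and 1.17, but not on their brightest. The brightest probe sets of Rps15, Rpl11 and Rpl6 overlapped between groups, and those of Rps3 and Rpsa were higher without passing. That of Rpsa passed with the replicate term (adjusted p = 0.0305, limma).

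Other bright ribosomal genes were lower in the unloaded scar, without passing. Rps29 read 70694 and 65976 loaded and 53606 and 52401 unloaded, Rpl31 26503 and 24094 against 17827 and 18887, and Rps6 25780.4 and 21706 against 16347 and 15396 (adjusted p = 0.306, 0.199 and 0.122, limma). With the replicate term 9 of the 39 rose and 2 fell, Rps6 and Rpl35 (log2 -0.68). The calls of Rplp0 and Rps15 were lost under spike-in scaling (adjusted p = 0.0994 and 0.0539, limma), whereas those of Rps3, Rps10, Rps16, Rpsa and Rpl6 were kept.

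**Figure D3:**
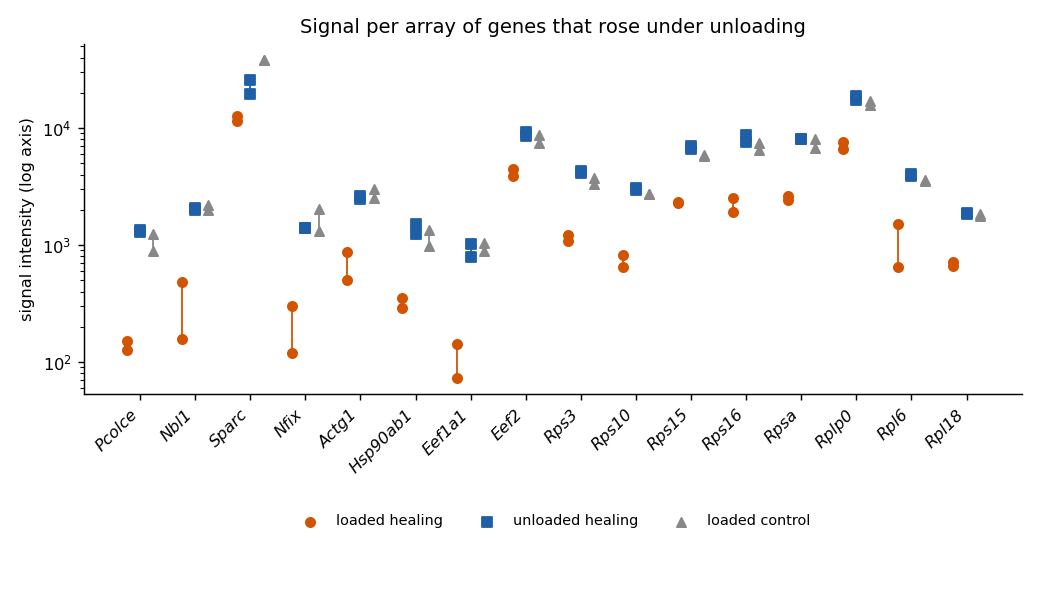
Signal intensity on each of 6 arrays (log axis) for 16 genes that rose, with circles for loaded healing, squares for unloaded healing and triangles for loaded control, 2 arrays each. Both squares lie above both circles in every gene, and apart from Sparc the squares lie near the triangles. The genes were chosen for their difference between the healing groups, so nothing is read from the distance to the triangles.

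Of 17 translation factors 0 passed at the brightest probe set and 0 had an unadjusted p under 0.05 there (limma), while 2 rose on another probe set. Eef1a1, the factor that carries transfer RNA to the ribosome, rose from 72.4 and 143 to 796 and 1028 on a dim probe set (log2 2.70 ± 0.45), while the bright one overlapped (9680.1 and 9048 against 10637 and 7829). Eef2, the translocation factor, rose from 4423 and 3922 to 9205 and 8507 (log2 1.08 ± 0.17), and its 3 other probe sets were all higher without passing, by 0.64, 1.01 and 0.24. Of 23 heat shock proteins and chaperones 1 fell at the brightest probe set and 1 rose on another. Hsp90ab1, a cytosolic chaperone, rose from 290.4 and 354 to 1238 and 1507 (log2 1.95 ± 0.34), but its brightest probe set was lower (6135 and 5237 against 4821 and 2656). Hspd1, the mitochondrial chaperonin, fell from 2581 and 2366 to 1041 and 899.8 (log2 -1.32 ± 0.25), and its dimmer probe set differed by -0.315. With the replicate term alone 1 probe set of Canx, the chaperone calnexin, fell (adjusted p = 0.0148, limma).

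In the proteasome and ubiquitin list no gene of 30 passed at its brightest probe set (limma), where 1 was higher and 4 lower at an unadjusted p under 0.05, and on any probe set 2 rose and 1 fell. Psmb5, a catalytic subunit, rose from 55.7 and 27.8 to 456 and 522 on a dim probe set, while the brighter one named for the same sequence was lower (2909.8 and 3700.3 against 1992 and 1964). Capns1, the small calpain subunit, rose from 327 and 253 to 2112 and 1579.6, while its brightest probe set overlapped. Psmb4, another core subunit, fell from 3585 and 2836 to 1049 and 971, and its brighter probe sets varied with the replicate number (2017 and 9866 loaded, 3436 and 4361 unloaded). Psme1, the interferon-induced proteasome activator, was higher without passing (5546 and 3252 against 11343 and 7866, adjusted p = 0.0994, limma) and passed with the replicate term. Psmb1, a core subunit, fell with that term alone (log2 -1.43, adjusted p = 0.029, limma).

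The remaining named calls belonged to none of these classes. Nfix, a transcription factor, rose from 302 and 120.3 to 1400.5 and 1386 (log2 2.60 ± 0.43 SE, adjusted p = 0.0199). Its brighter probe set, named for the same sequence, was higher by only 0.44 without passing (adjusted p = 0.612, limma). Mapk14, the stress kinase p38 alpha, fell from 959 and 1883 to 153 and 192 on a dim probe set, while its brightest one was higher (2619 and 2373 against 3515 and 3428). Polr3a, the large subunit of RNA polymerase III, fell from 993 and 1236 to 150.4 and 224 (log2 -2.34 ± 0.39 SE, adjusted p = 0.0201), below the 1381 and 966 of loaded control. Ywhah, a 14-3-3 protein, fell from 6009 and 5048 to 2010.3 and 1675 (log2 -1.56 ± 0.25), and its dimmer probe set differed by -0.52. Gnas, the stimulatory G protein subunit, fell by 0.98 on 1 probe set, with its other 3 above 0, of which 1 rose with the replicate term (log2 0.93). Oaz1, the antizyme that limits polyamine synthesis, fell from 5691 and 5077 to 2566 and 1999 (log2 -1.23 ± 0.20). Probe sets named for the coding part of the same Oaz1 sequence, but assigned no single symbol, rose by 1.28 and 3.18.

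Several classes gave no call at any probe set: antioxidant and metallothionein genes (27 tested), cell cycle genes (26), immediate early genes (23) and glucocorticoid response and atrophy genes (9), along with the lymphocyte, endothelial, erythroid and nerve lists above. Of the 151 genes in these 8 lists, each at its brightest probe set, 11 were higher and 8 lower at an unadjusted p under 0.05 (limma), 12.6% together. The share over all 5244 probe sets was 10.8%. That set also holds the dimmer probe sets of genes, so the shares are not of like sets. With the replicate term the antioxidant enzyme Gpx1 rose on its dimmer probe set (588 and 722 against 2199 and 1269, adjusted p = 0.0373, limma), while its brighter one spread from 722 to 5265 in unloaded healing. The metallothionein Mt3 was lower without passing (4712 and 3582 against 1832 and 2563), and Sod1 overlapped (7101 and 6209 against 7580.5 and 5348). Egr1, an early gene induced by strain and growth factors, read 3945 and 3447 loaded and 2136 and 2701 unloaded, whereas Fos read 2074 and 1575 against 2784 and 2345 (adjusted p = 0.326 and 0.489, limma). Cyclin D1, Ccnd1, overlapped (1554 and 1251 against 1529.9 and 2092). Trim63, a ubiquitin ligase of muscle atrophy, was higher on both unloaded arrays without passing (2014 and 2052 against 3290.5 and 3284, adjusted p = 0.15, limma).

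**Figure D4:**
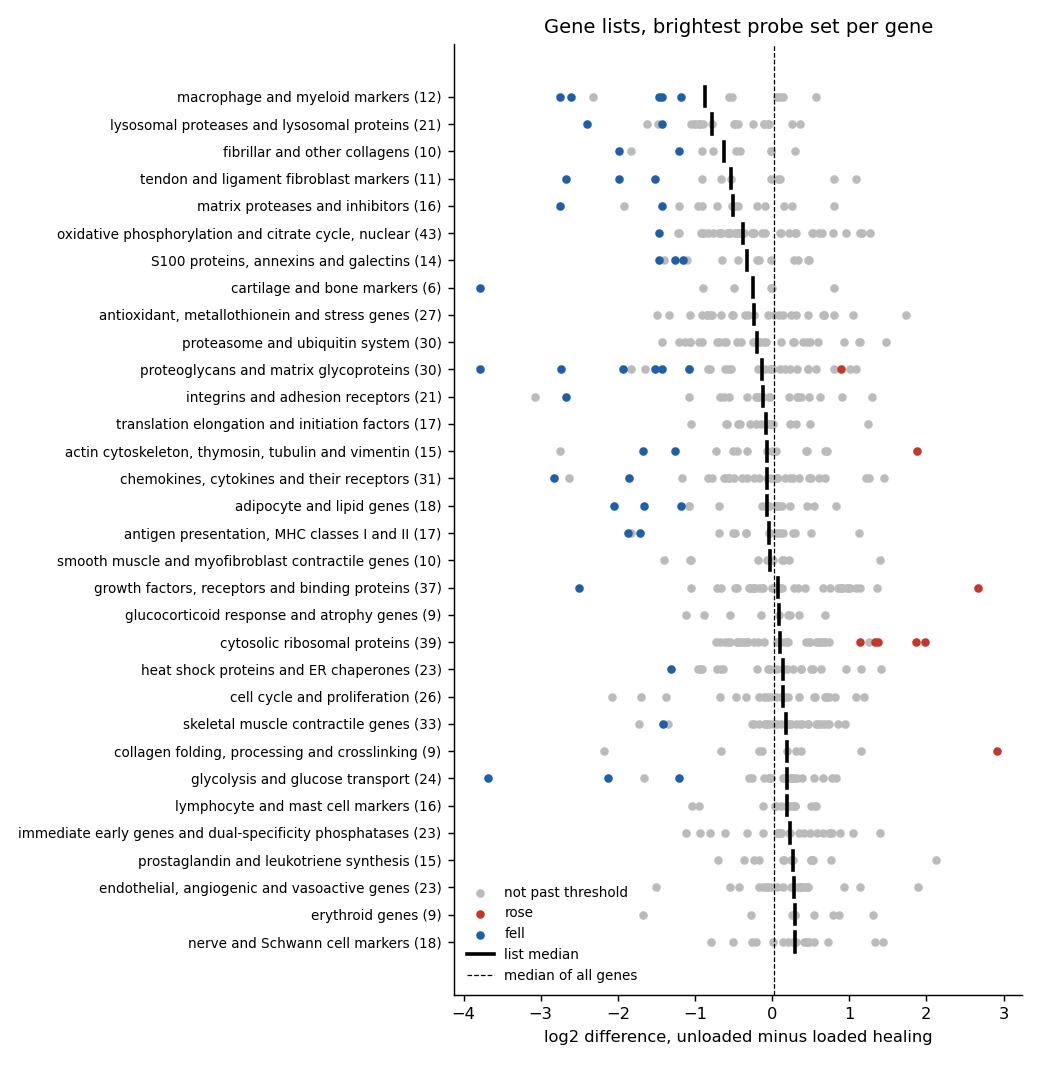
Log2 difference between unloaded and loaded healing (x axis) of the brightest probe set of each gene in 32 lists (y axis, number of genes in brackets), with the list median as a bar and the median of all 3230 genes as a dashed line. Macrophage, lysosomal and collagen lists have the lowest medians, at -0.87, -0.78 and -0.62, and the ribosomal list has 5 red points around a median of 0.10.

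Of the 32 list medians 18 were below 0 and 14 above. Quantile normalization and median centring turned none of them, and spike-in scaling put all 32 below 0. Averaging the probe sets of each gene turned the medians of collagen processing (to -0.13), antioxidant (to 0.18), glycolysis (to -0.03) and lipid genes (to 0.02). The medians of the macrophage (12 genes), lysosomal (21) and collagen (10) lists were the lowest of the 32 in the fit as reported, and each is given here beside 0.02 for all genes, with no test of the difference. With probe sets averaged they were -0.54, -0.49 and -0.34, and the matrix protease and antigen presentation lists, at -0.48 and -0.34, then lay below or level with the collagens. With no signal filter the macrophage median was -0.41.

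Agreement between probe sets of the same gene was limited. Of the 69 called genes 32 had a single tested probe set, and 37 had others, 56 probe sets in all. Of these 56, 30 differed in the same direction as the called one and 26 in the opposite direction, and 0 passed the threshold (limma). At an unadjusted p under 0.05, 10 went the same way and 9 the opposite way, and with the replicate term 3 passed in each direction. Spp1, Lyz2, Mmp12, Thy1, Cxcl13, Pcolce, Nbl1 and Rps16 were among the genes with 1 tested probe set, so no second measurement of them passed the signal filter. When the probe sets of each gene were averaged first, 37 genes passed, 12 that rose and 25 that fell. All were among the 69. The other 32 did not pass, and among them Apoe and Gnas stood at 0.01 and 0.14 on the log2 scale, opposite to their calls. Psap, Col1a1, Col3a1 and Fn1, also among the 32, then differed by only -0.165, -0.192, -0.249 and -0.268. Of 33 sequences with a called probe set and another tested one, 21 gave the same direction throughout, 12 were mixed and in 4 all were called. Probe sets named for a coding region had calls in 1 direction: of 380 tested 17 rose (4.47%) and 0 fell. Of 2484 named for a whole sequence, in contrast, 12 rose and 31 fell. Whether the 5' to 3' ratios of the control probe sets, given above, have a part in these differences was not tested.

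**Figure D5:**
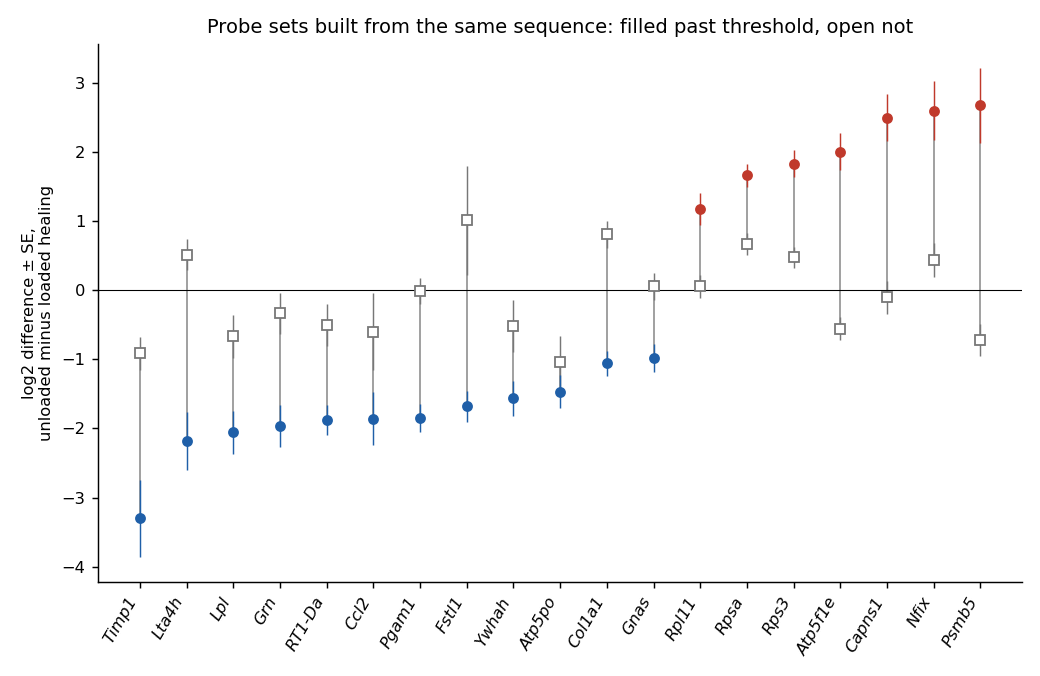
Log2 difference ± SE between unloaded and loaded healing for 19 called genes with a second tested probe set named for the same sequence. Filled circles passed the threshold and open squares did not, and the pair shared a direction in 12 of 19 genes.

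The 31 called probe sets without a single symbol held 21 rises and 10 falls. The largest rise of all was among them: the probe set rc_AI231807_at read 627 and 264 loaded and 6846 and 7907 unloaded (log2 4.03 ± 0.33 SE, adjusted p = 0.000822), with 9447 and 8508 in loaded control. X15013cds_at rose from 126 and 129 to 2303 and 1618 (log2 3.54 ± 0.33). The largest fall among them, rc_AI014135_g_at, went from 31706 and 29868 to 5300.4 and 5304 (log2 -2.53 ± 0.17 SE, adjusted p = 0.0005), and its companion rc_AI014135_at, for the same sequence, fell as well (log2 -1.77 ± 0.24). These probe sets are unnamed in the tables used here, which does not mean that they have no gene.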

How the data were processed

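The deposited table holds linear intensity for 8799 probe sets on 8 arrays. Trimmed means of 500.5 to 500.6 on the 6 arrays used show that the authors' intensity values were scaled to a common level. How the probes were summarised is not given in the sources used here. Groups were taken from the sample titles, and every column has a sample.

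Without the array's 59 controls, 42.5 (the 10th percentile over these 6 arrays) was added as an offset, log2 was taken, and the 40% with the lowest mean were removed, which left 5244 of 8740. The offset shrinks the folds of dim probe sets. Gene symbols came from GEO's platform annotation, with 7018 probe sets carrying 1 symbol, 308 several and 1473 none. Of the first, 6994 matched RefSeq (GRCr8) by identifier and 0 symbols changed. Of the tested probe sets, 4179 had 1 symbol and stood for 3230 genes.

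A mean per group (loaded healing, unloaded healing, loaded control) was fitted (limma 3.58.1 and R 4.3.3), with variances following intensity, 3 residual and 5.56 prior degrees of freedom, two-sided tests and Benjamini-Hochberg adjustment over 5244 probe sets at 0.05. Precision is limited by having 2 arrays in a group. Named genes were drawn from the called probe sets with 1 symbol, the other tested probe sets of their genes, and up to 6 of the brightest uncalled members of each list. Not every other probe set of a called gene is described. Signals of both healing groups are given, in the text or a figure, for the 15 largest rises and falls. Genes that passed only with the replicate term, Fabp4 and the unnamed probe sets were added after their values were seen. The comparison, the 32 lists and the alternatives were chosen with earlier results of these data known. In lists each gene counts by its brightest probe set.

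The labels number the arrays 1 and 2 in each group without saying what a number stands for. Deviations from the group means correlated between arrays of the same number at 0.151, 0.187 and 0.165 for the 3 pairs of groups. Whether the numbers pair the arrays is therefore not known, and the fit as reported has no term for them. Values with a term for replicate number are an alternative only, given for many of the genes whose call they change. Alternatives covered the offset, the filter, the scaling, the variance prior, the arrays fitted, the replicate term, averaging of probe sets and leaving out each array.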

Additional observations from a re-analysis of the deposited data

How the results depend on the processing

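Averaging the probe sets of each gene turned the calls of Apoe (0.013) and Gnas (0.137) to the other side of 0, and 30 of the other 67 named genes lost their call. Under the 18 alternatives fitted per probe set no call turned: over the 69 named genes, 821 values kept their side of the threshold and 415 lost it. The count of 100 calls between unloaded and loaded healing became 52 with median centring, 162 with spike-in scaling and 0 without the intensity trend, and lay between 67 and 130 with the other offsets, filters, quantile normalization, the robust prior, the 4 healing arrays alone and all 8 arrays. Leaving out each array in turn gave 29 to 75. A lone array in a group was then assumed to vary like the other groups. The single call between unloaded healing and loaded control became 2 with the larger offset, 6 with quantile normalization, 2 with spike-in scaling, 0 without the intensity trend, 2 with the robust prior and 4 with all 8 arrays, and leaving out each array gave 0 to 2. The cause of these changes was not tested. Of the list medians under these alternatives, 525 moved by less than the spread between replicates and 83 by more.

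With the replicate block, for a possible pairing by number, 175 probe sets passed between unloaded and loaded healing, all 100 calls among them. Between unloaded healing and loaded control 16 passed. All 100 calls kept their direction within each replicate number, which had to follow, since the unloaded and loaded arrays did not overlap in any of them. Replicate 1 arrays had median signals of 238.5 to 250.8 and replicate 2 arrays of 279.8 to 285.6.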

Other observations

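The genes named here are in none of the lists, passed only with the term for replicate number and were picked out after their values were seen. Ncl, nucleolin of the ribosome-making nucleolus, read 277 and 395 in loaded healing and 1322 and 1192 in unloaded healing (log2 1.80). Srsf2, a splicing protein, read 2375 and 1698 against 819.5 and 535, and Ybx3, a cold-shock protein, 4547 and 3863 against 1929.7 and 1622. Gabarap, which builds autophagosome membranes, was higher in unloaded healing (2175 and 1886 against 3744 and 4067), and Rab10, a GTPase of the secretory route, was lower (2744 and 2419 against 1076 and 1252). Thra, a thyroid hormone receptor, was higher (808 and 537 against 1618 and 1582, log2 1.23).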
